A study of Mus musculus with 6 samples.

Results

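Histone modifiers and chromatin remodellers were examined in RNA of tumor cells from the mammary glands of MMTV-PyVT mice, in which the mouse mammary tumor virus promoter drives the polyoma middle T oncogene in mammary epithelium. The genes were chosen by name alone, as every row of the count table whose symbol begins with Setd, Ehmt or Smarc, or with Kdm, Kmt, Hdac, Kat, Chd or Arid and a digit. This gave 83 genes of 10995, and all 83 passed the filter on low counts. The libraries labelled Nr4a1-/- (KO, 3 libraries) were set against those labelled wild type (WT, 3 libraries). All 6 were of the FVB/NJ strain and carried the PyVT oncogene, and the mice of both groups were matched in age. Separate animals are not stated for the libraries of a group, so a p-value here reflects the spread between libraries, which may be technical. The question of the series was which mRNAs differ between the genotypes. Nr4a1, which encodes an orphan nuclear receptor of the immediate early kind, had 612, 847 and 746 counts in the KO-labelled libraries and 711, 406 and 358 counts in the WT-labelled ones. KO-labelled replicates 2 and 3 were the highest and the groups overlapped, with a log2 fold change of 0.49 (SE 0.32, edgeR adjusted p = 0.59). An exact permutation test on the log2 of its CPM (counts scaled to a common library size) gave a two-sided p = 0.20. The smallest that 3 against 3 allows is 0.10. The gene was therefore not lower on average under the KO label, the labels do not tell which part of it was disrupted, and every direction below is between libraries as labelled.

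DNA in the nucleus is wound on histones, and the marks on histone tails help to set which genes can be transcribed. Many methyltransferases (Kmt, Setd, Ehmt) and acetyltransferases (Kat) write such marks, and many demethylases (Kdm) and deacetylases (Hdac) erase them. A gene's name alone does not show that it acts on histones. The ATP-driven machines built round Smarca and Chd proteins slide or evict nucleosomes. BAF complexes, with Smarca4 or Smarca2 as the motor and Arid1a or Arid1b as a large targeting subunit, are frequently mutated in human cancer, and NuRD joins the Chd3 or Chd4 motor to the deacetylases Hdac1 and Hdac2.

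Promoter sequences are shown for 2 reasons: to set the deacetylase gene with the highest fold change beside a relative with the lowest, and to show where the letters bound by a lone NR4A receptor occur. RefSeq (GRCm38.p6) held start sites for 63 of the 83 genes, 86 in all, and the 250 bases before each start were read. Hdac9 had 2 annotated starts, at whose upstream windows (minus strand, chr12:34917096-34917345 and chr12:34528890-34529139) there were 0 and 2 CG dinucleotides. The window of Hdac5 (minus strand, chr11:102230173-102230422) held 12. Over the 86 windows the median was 19.5 CG, against 6.0 over all 32851 RefSeq windows of that length, and 8 of the 86 (9.3%) held fewer than 5, against 44.4% of all. Capitals mark CG.
Hdac9 upstream start: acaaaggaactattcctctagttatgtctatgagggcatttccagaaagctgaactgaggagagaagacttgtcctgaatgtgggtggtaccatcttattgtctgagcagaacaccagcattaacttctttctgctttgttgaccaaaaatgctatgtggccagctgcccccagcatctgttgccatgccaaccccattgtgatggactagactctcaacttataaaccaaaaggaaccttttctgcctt
Hdac9 downstream start: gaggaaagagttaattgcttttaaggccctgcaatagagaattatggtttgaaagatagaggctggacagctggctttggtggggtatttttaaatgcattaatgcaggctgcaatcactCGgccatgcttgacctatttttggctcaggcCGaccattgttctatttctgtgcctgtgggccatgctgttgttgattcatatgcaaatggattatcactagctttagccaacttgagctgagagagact
Hdac5: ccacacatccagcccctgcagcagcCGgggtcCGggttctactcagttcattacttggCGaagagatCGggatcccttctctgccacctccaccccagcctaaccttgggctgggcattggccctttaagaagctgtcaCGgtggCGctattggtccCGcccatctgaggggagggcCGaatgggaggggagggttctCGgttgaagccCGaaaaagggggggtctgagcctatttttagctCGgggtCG
The NR4A monomer element, known as NBRE, was searched as AAAGGTCA on both strands. It occurred in 2 of the 86 windows (2.3%), against 1.3% of all windows. The sites were in Kat7, which encodes an acetyltransferase, and in Kdm6a, which encodes a demethylase that removes a Polycomb mark. The first base of the match lay at -25 from the start in Kat7 and at -33 in Kdm6a. Capitals mark the NBRE in the stretches of 60 bases that end at the base before the start (Kat7, minus strand, chr11:95310247-95310306, and Kdm6a, plus strand, chrX:18162515-18162574).
Kat7: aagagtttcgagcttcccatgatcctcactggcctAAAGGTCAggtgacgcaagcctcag
Kdm6a: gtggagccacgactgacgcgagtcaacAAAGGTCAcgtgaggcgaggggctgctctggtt
The shorter core AGGTCA, which lies inside the NBRE, occurred in 9 of the 86 windows (10.5%), against 14.0% of all, and the GC box GGGCGG in 55 (64.0%), against 32.7%. An NRF1-like palindrome occurred in 5 (5.8%), against 3.7%, and the E-box CACGTG in 5 (5.8%), against 6.0%. All were searched on both strands. These are matches of letters, not measured binding. The 2 genes with an NBRE had log2 fold changes near 0: Kat7 0.02 (SE 0.09) and Kdm6a 0.07 (SE 0.06).

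Total counts per library ranged from 19569173 to 24188875, and the 83 genes took 0.896% to 0.984% of them, with 76 to 16590 counts for any member in any library. WT-labelled replicate 1 stood apart on the first principal component of all genes, at 51.3 against -28.8 to 2.22 in the others. Without it the log2 fold change was 0.089 for Setdb2, 0.11 for Chd1l, -0.11 for Kdm1a, -0.057 for Kat5, -0.097 for Hdac3, -0.099 for Ehmt2 and -0.081 for Smarcc2, each nearer to 0 by more than 1.5 times than the value with all 6 libraries given below. All 8 epithelial markers were listed, and their summed level was 4314, 3300 and 3813 CPM in KO-labelled libraries and 4820, 5313 and 5364 CPM in WT-labelled ones. Markers of other cells were present too. The pericyte list (5 of 6 listed) summed to 255 to 460 CPM under the KO label and 89.1 to 229 CPM under the WT label, the macrophage list (9 of 9) to 728 to 1117 CPM under the KO label and 395 to 715 CPM under the WT label, and the fibroblast list (6 of 8) to 4836 to 8856 CPM under the KO label and 2253 to 5459 CPM under the WT label. The 8 proliferation markers summed to 160 to 202 CPM under the KO label and 107 to 200 CPM under the WT label, and the 7 basal and myoepithelial markers to 2065 to 2483 CPM under the KO label and 1108 to 2871 CPM under the WT label. Of the endothelial, T cell and B cell lists 0 of 7, 0 of 7 and 0 of 4 were listed, and of the adipocyte list only Fabp4 (1 of 5), at 26.6 to 78.1 CPM under the KO label and 2.45 to 4.27 CPM under the WT label. In bulk RNA, fewer cells of a type and less RNA per cell cannot be told apart, and what these shifts contribute to the values below was not tested.

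The chromatin genes were steadily expressed and none differed between the labels past the test. Across the 6 libraries the ratio of a gene's highest to its lowest level had a median of 1.22 over the 83 genes and 1.35 over all genes tested. It was smallest for Kdm5a, a demethylase of active promoters, at 1.05, and largest for Hdac9, a deacetylase, at 3.86, with Chd9 next at 1.84. The edgeR quasi-likelihood test called 0 of the 83 genes at an adjusted p under 0.05, and 0% of all 10995 genes were called. The smallest adjusted p among the 83 was 0.574. DESeq2 also called 0 of the 83 (smallest adjusted p = 0.245), while it called 0.938% of all genes (0.583% higher and 0.355% lower). By limma-voom the count was also 0. At an unadjusted p under 0.05 edgeR gave 6 of the 83 genes, Hdac9 higher and Chd7, Kmt2b, Kmt2d, Kmt5c and Hdac5 lower, which is 7.23% against 7.88% of all genes (3.7% higher and 4.17% lower). That count was 2 (2.41%) without KO replicate 1, against 4.67% of all genes, and 2 without WT replicate 3, against 6.95% of all genes. It was 3 (3.61%) without KO replicate 2, against 3.53% of all genes, and 10 (12%) without WT replicate 2, against 12.4% of all genes.

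Intervals were narrow for most of these genes, whose median level was 90.8 CPM, against 41.9 CPM over all genes. The 95% interval of the log2 fold change, taken from the standard error of the fit, lay within a 2-fold change in either direction for 82 of the 83 genes, with Hdac9 as the exception, against 84.1% of all genes. It lay within 0.5 on the log2 scale for 71 of the 83 (85.5%), against 57.8% of all.

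**Figure D1:**
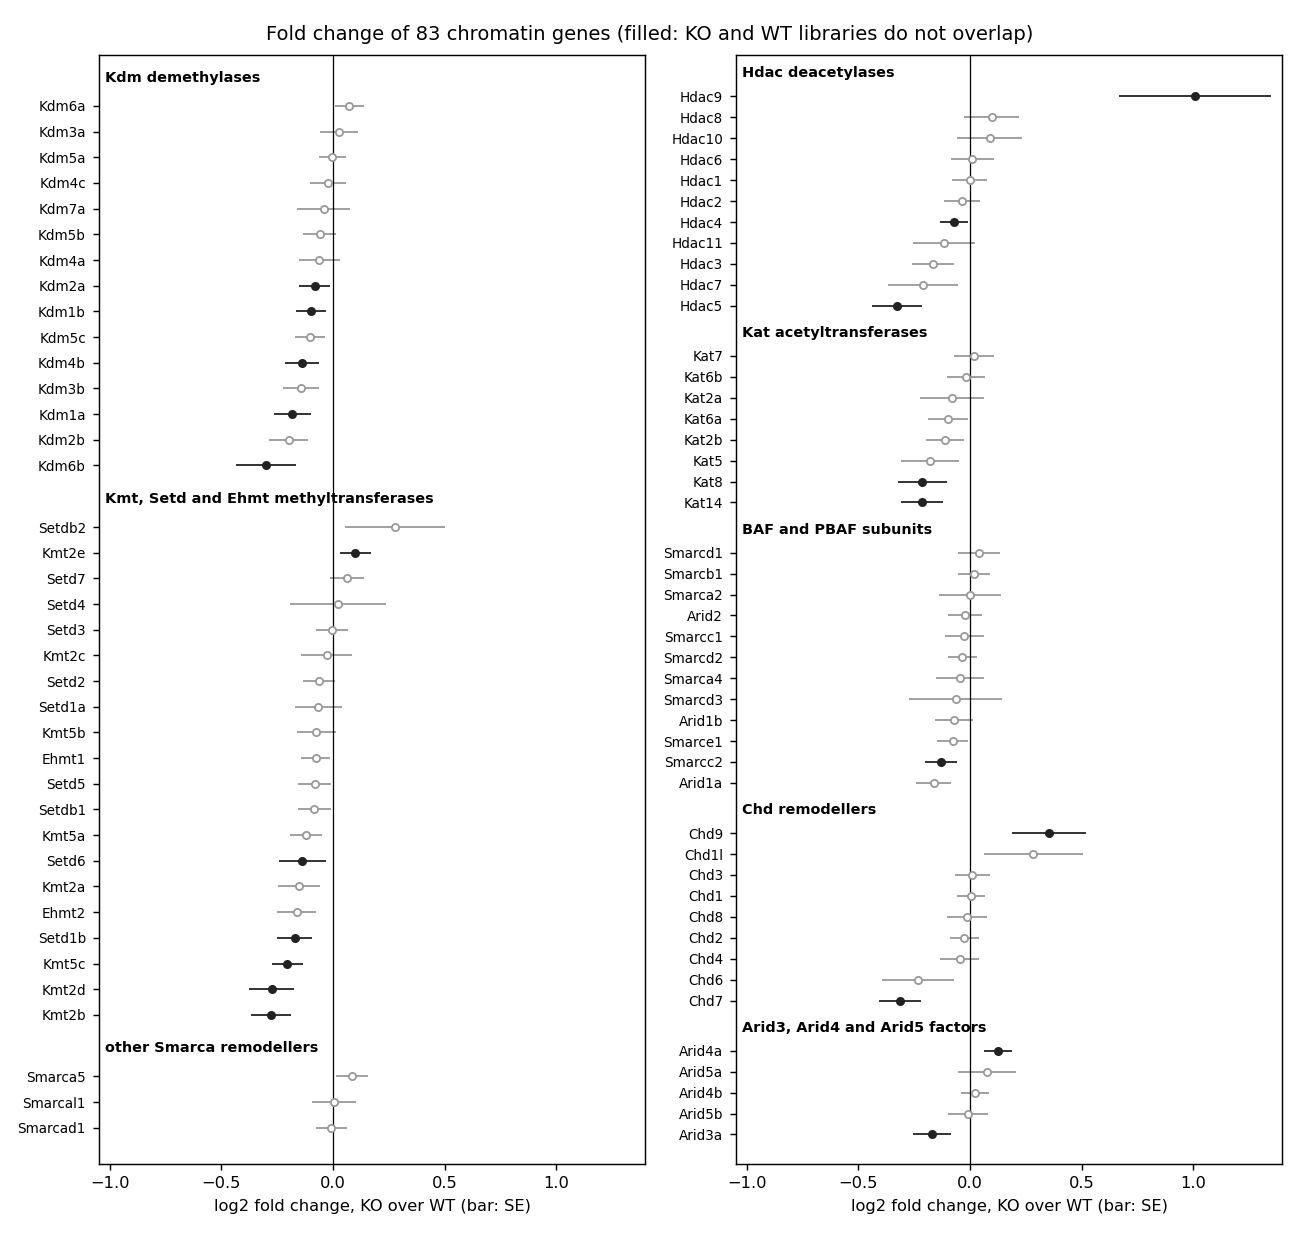
Log2 fold change, KO-labelled over WT-labelled libraries, of the 83 genes by role, with the standard error of the edgeR fit as the bar; filled points mark genes whose 3 KO-labelled libraries all lay above or all below the 3 WT-labelled ones. Most points sit between -0.33 and 0.35, 61 of them below 0, and Hdac9 stands alone at 1.01.

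Small shifts of these genes leaned one way. The log2 fold change was below 0 for 61 of the 83 genes (73.5%) and for 50.6% of all genes, and its median was -0.06 over the 83 genes and -0.0024 over all. With scaling by library size alone, 51 (61.4%) lay below 0, with a median of -0.036, against 45.2% and a median of 0.021 over all genes. The lean was present in 13 of 15 demethylases, 16 of 20 methyltransferases, 7 of 8 acetyltransferases, 10 of 12 BAF and PBAF subunits and 7 of 11 deacetylases, but in 5 of 9 Chd genes, 2 of 5 Arid3, Arid4 and Arid5 genes and 1 of the 3 other Smarca genes (Smarca5, Smarcad1 and Smarcal1). The groups did not overlap for 21 genes (25.3%), 17 with the KO label lower and 4 with it higher, where 17.4% of all genes did not overlap, 9.05% with the KO label lower and 8.39% with it higher. With the trend on transcript GC content removed, described below, 11 genes (13.3%) did not overlap, against 14.4% of all.

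By library, WT-labelled replicates 1 and 3 were the high ones. Relative to each gene's own mean, the median of the 83 genes was -0.013, -0.053 and -0.030 log2 CPM in KO-labelled replicates 1, 2 and 3, and 0.047, -0.011 and 0.068 in WT-labelled replicates 1, 2 and 3. The median of WT-labelled replicate 2 stood just above that of KO-labelled replicate 1 and below 0. WT-labelled replicate 1 held the highest level of 33 genes and WT-labelled replicate 3 that of 27, while KO-labelled replicate 2 held the lowest of 26. WT-labelled replicate 1 was also the lowest for 18. Over all genes it was the highest for 32.2% and the lowest for 31.6%, and KO-labelled replicate 2 the lowest for 19.3%.

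**Figure D2:**
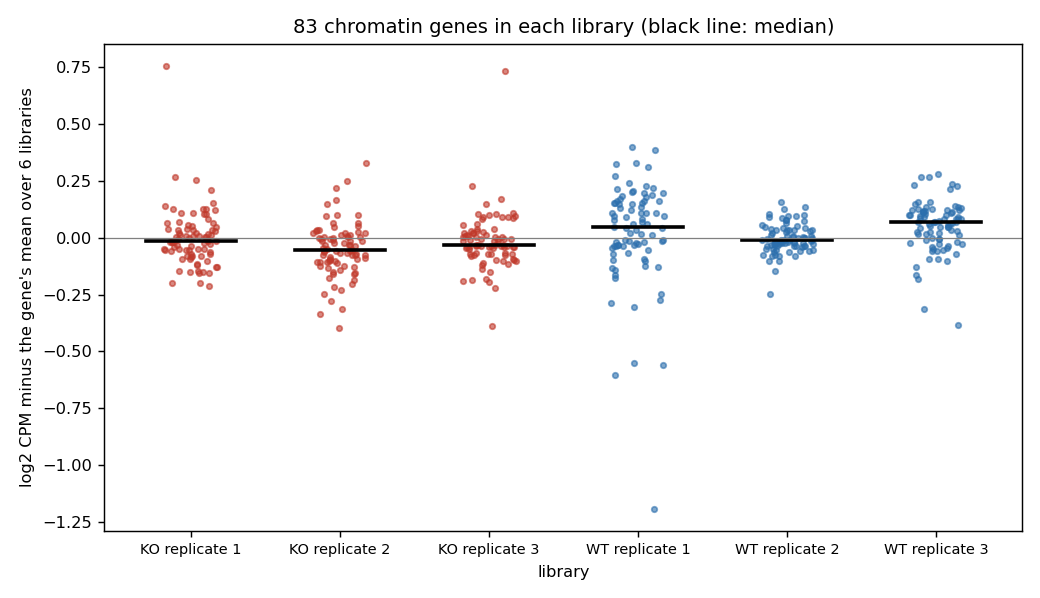
Each point is 1 of the 83 genes, as its log2 CPM minus its own mean over the 6 libraries, with the 3 KO-labelled libraries on the left and the 3 WT-labelled ones on the right; black lines are medians. The medians of WT-labelled replicates 1 and 3 sit above 0 and that of KO-labelled replicate 2 is the lowest, and the lowest point, in WT-labelled replicate 1, is Hdac9.

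In the main fit the erasers of acetylation held both the highest and the lowest fold change of all 83 genes. Each was in class IIa, the signal-responsive deacetylases that shuttle between nucleus and cytoplasm. The lowest place was not resolved, with Hdac5 at -0.33 (SE 0.11) and Chd7 at -0.31 (SE 0.09). With the GC trend removed, described below, Chd7 lay below Hdac5. Hdac9 (ENSMUSG00000004698.10, chromosome 12, 34047580 to 34917095, minus strand, GRCm38) had 14.2, 9.01 and 14.0 CPM in the KO-labelled libraries and 3.68, 8.35 and 6.45 CPM in the WT-labelled ones. The groups did not overlap, but KO-labelled replicate 2 stood close to WT-labelled replicate 2. Its mean was 12.4 CPM ± 2.93 under the KO label and 6.16 CPM ± 2.35 under the WT label (SD, n = 3 each), a log2 fold change of 1.01 (SE 0.34, edgeR unadjusted p = 0.0255, adjusted p = 0.574). Hdac9 had the lowest level per kilobase of all 83 genes, at 0.846 CPM per kilobase under the KO label and 0.42 under the WT label. Without WT-labelled replicate 1 its log2 fold change was 0.74, and with any other library left out it lay between 0.90 and 1.29. The summed pericyte, macrophage and fibroblast markers given above were likewise lowest in WT-labelled replicate 1 or 3 and higher in each KO-labelled library than in those libraries. The fibroblast and pericyte sums were highest in KO-labelled replicate 2, which was the lowest of the 3 for Hdac9. The part of those cells in its level was not tested.

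Hdac5 (ENSMUSG00000008855.17, chromosome 11, 102194432 to 102230166, minus strand) had 101, 86.6 and 106 CPM under the KO label and 136, 112 and 120 CPM under the WT label. All 3 KO-labelled libraries lay below all 3 WT-labelled ones, KO-labelled replicate 3 by the smallest gap, to WT-labelled replicate 2. This came to -0.33 in log2 fold change (SE 0.11, edgeR unadjusted p = 0.0256, adjusted p = 0.574). Hdac4, of the same class, stood at 51.4 CPM ± 1.13 and 54.0 CPM ± 1.33 under the KO and WT labels (SD, n = 3 each), without overlap but a difference of -0.07 log2, and Hdac7 overlapped (-0.21, SE 0.16). Exons of Hdac4 overlap those of Gm26720 on the opposite strand over 22.4% of their length, so part of its reads is uncertain. As a ratio of levels per kilobase, Hdac5 exceeded Hdac9 11.8, 16.0 and 12.7 times in the KO-labelled libraries and 61.9, 22.3 and 31.1 times in the WT-labelled ones. This ratio had to separate the groups, since each gene already did so, in opposite directions.

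The nuclear deacetylases of class I had smaller fold changes than Hdac9 and Hdac5. Hdac3 (-0.17) and Hdac8 (0.10) of class I nevertheless exceeded Hdac4 (-0.07) of class IIa in size. Hdac1 and Hdac2, the paired catalytic subunits of NuRD, SIN3 and CoREST complexes, stood at -0.0019 (SE 0.08) and -0.04 (SE 0.08) in log2 fold change. Their ratio per kilobase was 1.03 ± 0.106 under the KO label and 1.01 ± 0.101 under the WT label (SD, n = 3 each). Reads of Hdac1 are uncertain, since 62.7% of the 31-base words of its transcript also occur in another gene, most often the gene model Gm10093. Hdac3, the deacetylase of NCoR complexes, stood at 122 CPM ± 10.4 under the KO label and 137 CPM ± 11.2 under the WT label (SD, n = 3 each), with overlap (-0.17, SE 0.10). Hdac6, a tubulin deacetylase, and Hdac8, Hdac10 and Hdac11 lay between -0.12 and 0.10. Hdac11 shares 24.1% of its transcript words, mainly with Gm44002, and is uncertain.

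**Figure D3:**
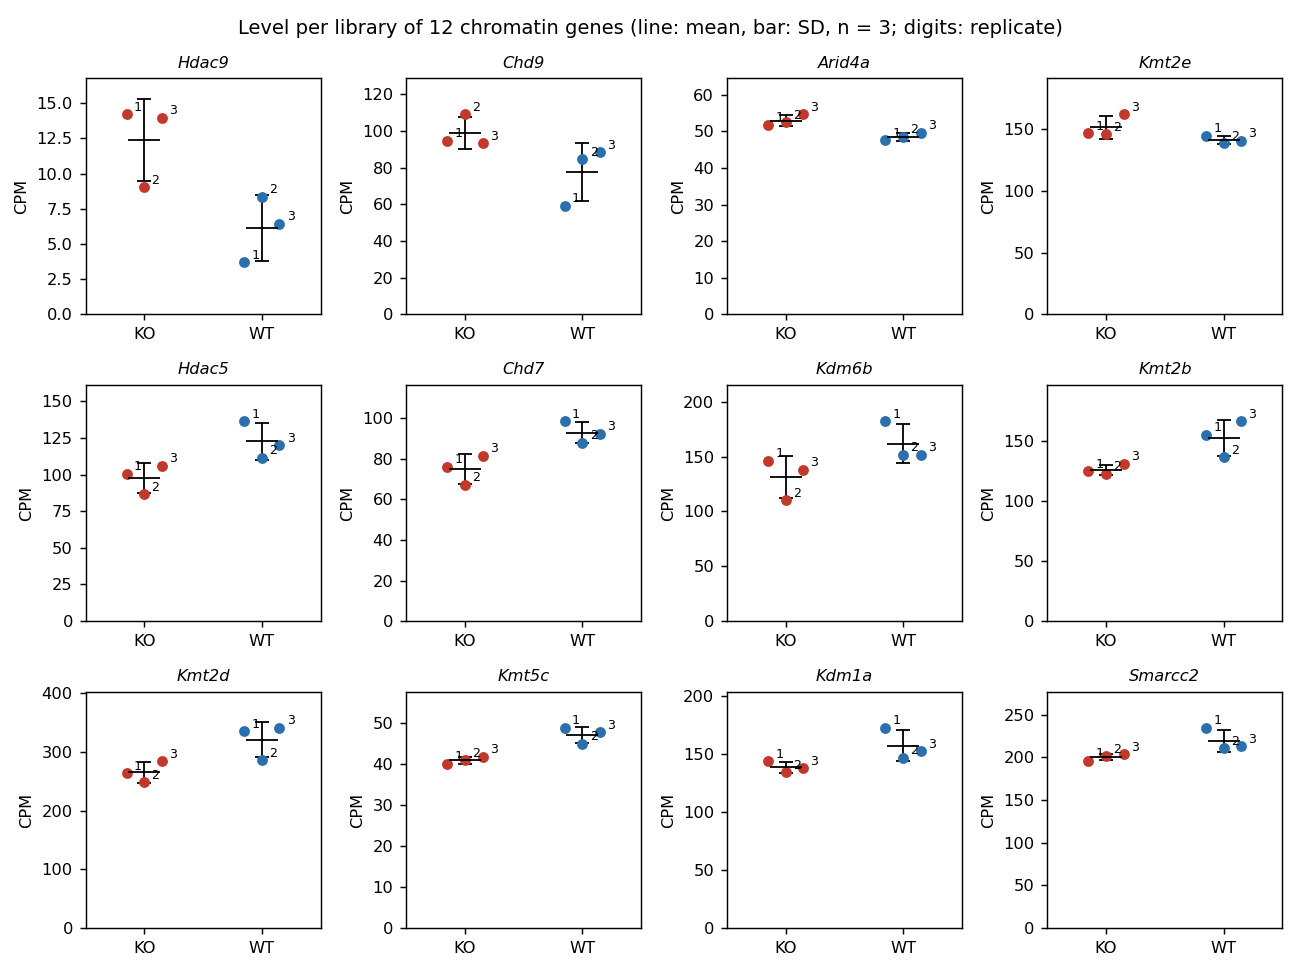
Level in CPM per library of 12 genes whose groups did not overlap, KO-labelled libraries left and WT-labelled right, with digits for the replicate and the mean and SD of 3 libraries in black; axes start at 0. The first 4 panels (Hdac9, Chd9, Arid4a, Kmt2e) are all the genes with the KO label higher, and the gaps in most panels are small beside the level itself.

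Among the writers of methylation, the lowest fold changes belonged to Kmt2b, Kmt2d and Kmt5c. Kmt2b (ENSMUSG00000006307.16, chromosome 7, 30568858 to 30588726, minus strand), a methyltransferase of CpG-rich promoters, had 125, 122 and 131 CPM under the KO label and 155, 136 and 166 CPM under the WT label. Its log2 fold change was -0.28 (SE 0.09, edgeR unadjusted p = 0.0209, adjusted p = 0.574). Kmt2d (ENSMUSG00000048154.17, chromosome 15, 98831669 to 98871204, minus strand), an enhancer methyltransferase, had 263, 248 and 284 CPM under the KO label and 335, 286 and 341 CPM under the WT label. The groups were separated by a narrow margin between KO-labelled replicate 3 and WT-labelled replicate 2, and the fold change came to -0.27 in log2 (SE 0.10, edgeR unadjusted p = 0.0327, adjusted p = 0.574). Kmt5c, which adds the further methyl groups of a heterochromatin mark on histone H4, was the tightest of these at 40.8 CPM ± 0.801 under the KO label and 47.1 CPM ± 1.98 under the WT label (SD, n = 3 each), a log2 fold change of -0.20 (SE 0.07, edgeR unadjusted p = 0.0235, adjusted p = 0.574).

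Close relatives had fold changes nearer to 0, though the difference between relatives was not tested. Kmt2c, the paralog of Kmt2d, had a log2 fold change of -0.03 (SE 0.12) with overlap, and Kmt2a, the paralog of Kmt2b, -0.15 (SE 0.10). Kmt2e, a family member thought to lack methyltransferase activity, stood at 147, 146 and 162 CPM under the KO label and 145, 139 and 140 CPM under the WT label, so that the groups were separated by under 1 CPM. Its exons overlap those of Srpk2 on the opposite strand over 9.3% of their length, so part of its reads cannot be assigned with certainty. The Setd1 enzymes of promoter methylation stood at -0.07 (Setd1a, SE 0.10) and -0.17 (Setd1b, SE 0.08). Setd1a shares 54.5% of its transcript words, mainly with the overlapping gene model Gm49388, and is uncertain. Setd2, which methylates histones in transcribed gene bodies, had -0.06 (SE 0.07). The writers of repressive methylation were Setdb1 at -0.08 (SE 0.07), Ehmt1 at -0.08 (SE 0.07) and Ehmt2 at -0.16 (SE 0.09), and Ehmt2 ranked 2 in level per kilobase among the 83 genes, at 39.7 CPM per kilobase under the KO label and 44.4 under the WT label. At the low end, Setdb2 had 7.76, 7.97 and 6.71 CPM under the KO label and 4.41, 7.20 and 6.87 CPM under the WT label (0.28, SE 0.22), with WT-labelled replicate 1 as the low library, and Setd4 stood at 7.06 CPM ± 1.15 and 6.95 CPM ± 1.39 under the KO and WT labels (SD, n = 3 each).

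For the erasers of methylation, 5 of 15 genes (33.3%) did not overlap between the groups, against 17.4% of all genes. All 5 had the KO label lower, as 9.05% of all genes did, namely Kdm6b, Kdm1a, Kdm4b, Kdm1b and Kdm2a. The share without overlap was 30% in the methyltransferases and 27.3% in the deacetylases. It ranged from 0% in the other Smarca genes to 40% in the Arid3, Arid4 and Arid5 genes. At an unadjusted p under 0.05 edgeR gave 0 of the 15 demethylases, against 7.88% of all genes. Kdm6b, an inducible demethylase of the Polycomb mark, had 146, 110 and 138 CPM under the KO label and 182, 152 and 152 CPM under the WT label. Its log2 fold change was -0.30 (SE 0.13, edgeR unadjusted p = 0.0646, adjusted p = 0.574). Kdm6a, its X-linked relative, had 78.8, 82.3 and 86.0 CPM under the KO label and 79.8, 77.7 and 77.3 CPM under the WT label, with overlap. The ratio of Kdm6b to Kdm6a per kilobase was 2.24, 1.61 and 1.93 in the KO-labelled libraries and 2.75, 2.36 and 2.37 in the WT-labelled ones, without overlap.

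Kdm1a, the flavin-dependent demethylase of the CoREST complex, had 143, 134 and 138 CPM under the KO label and 172, 146 and 152 CPM under the WT label. This came to -0.18 in log2 fold change (SE 0.08, edgeR unadjusted p = 0.0682, adjusted p = 0.574), and KO-labelled replicate 1 stood within 3 CPM of WT-labelled replicate 2. The Kdm5 demethylases of active promoters were level: Kdm5a had 200, 201 and 207 CPM under the KO label and 199, 201 and 210 CPM under the WT label, and Kdm5b stood at -0.06 (SE 0.07) and Kdm5c at -0.10 (SE 0.07) in log2 fold change.

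The acetyltransferases lay between -0.22 and 0.02 on the log2 fold change scale. Kat14, a subunit of the ATAC complex, stood at 31.4 CPM ± 2.15 under the KO label and 36.5 CPM ± 2.53 under the WT label (SD, n = 3 each), and Kat8, which acetylates histone H4, was the other whose groups did not overlap (-0.21, SE 0.11). Kat14 shares 17.6% of its transcript words, mainly with Pet117, and Kat8 12.5%, mainly with Prss8, so both are uncertain. Kat2a and Kat2b, alternative enzymes of the SAGA and ATAC complexes, had -0.08 (SE 0.14) and -0.11 (SE 0.09). Kat5, of the TIP60 complex, had -0.18 (SE 0.13) and Kat6a, a MYST family enzyme, -0.10 (SE 0.09), each with overlap. Kat5 shares 17.9% of its transcript words, mainly with Rnaseh2c, and Kat2b 15.4%, mainly with Kat2b-ps, so these 2 are uncertain too.

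The BAF and PBAF subunits were the most level of the larger groups, with a median absolute log2 fold change of 0.043 over 12 genes, against 0.081 over all 83 and 0.129 over all genes tested. Smarca4, the main motor here, had 239, 214 and 189 CPM under the KO label and 211, 213 and 238 CPM under the WT label, so the libraries interleaved. Smarca2, the alternative motor, had 81.8, 77.2 and 86.8 CPM under the KO label and 98.4, 68.5 and 79.1 CPM under the WT label. Per kilobase, Smarca4 exceeded Smarca2 5.78 ± 0.857 times under the KO label and 6.08 ± 1.17 times under the WT label (SD, n = 3 each). The merged exons that set this scale came to 14.27 kilobases for Smarca2, whose longest transcript had 5921 bases. For Smarca4 they came to 6.47 kilobases, with a longest transcript of 6376 bases, so the size of the ratio depends on the annotation. The interval of the log2 fold change was -0.31 to 0.21 for Smarca4 and -0.34 to 0.34 for Smarca2. The core subunits Smarcb1 and Smarcc1 stood at 0.02 (SE 0.07) and -0.03 (SE 0.09).

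Arid1a, the targeting subunit of canonical BAF, had 246, 233 and 260 CPM under the KO label and 289, 260 and 279 CPM under the WT label. KO-labelled replicate 3 and WT-labelled replicate 2 stood at the same level, and the fold change came to -0.16 in log2 (SE 0.08, edgeR adjusted p = 0.574). Its alternative Arid1b had -0.07 (SE 0.09) and the PBAF subunit Arid2 -0.02 (SE 0.08). Smarcc2, a scaffold subunit, was the only BAF gene without overlap, at 200 CPM ± 3.82 under the KO label and 219 CPM ± 13.1 under the WT label (SD, n = 3 each), a log2 fold change of -0.13 (SE 0.07). It ranked 3 in level per kilobase among the 83 genes.

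Other remodellers included the gene of highest level and a pair that leaned apart. Chd4, the NuRD motor, had 79.7 CPM per kilobase under the KO label and 82.3 under the WT label, more than any other of the 83 genes, with a log2 fold change of -0.05 (SE 0.09). Per kilobase it exceeded Chd3 2.16 ± 0.086 times under the KO label and 2.25 ± 0.0611 times under the WT label (SD, n = 3 each). Smarca5, the motor of ISWI complexes, had 0.08 (SE 0.07), with 40.9% of its transcript words shared, mostly with Smarca5-ps, so its reads are uncertain.

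Chd7 and Chd9 belong to the same subfamily of large Chd remodellers. Chd7 (ENSMUSG00000041235.12, chromosome 4, 8690406 to 8867659, plus strand), the gene mutated in human CHARGE syndrome, had 76.1, 67.0 and 81.5 CPM under the KO label and 98.5, 87.9 and 92.4 CPM under the WT label, a log2 fold change of -0.31 (SE 0.09, edgeR unadjusted p = 0.0152, adjusted p = 0.574). Chd9 (ENSMUSG00000056608.14, chromosome 8, 90828352 to 91054516, plus strand) had 94.6, 109 and 93.3 CPM under the KO label and 59.3, 84.6 and 88.3 CPM under the WT label, a log2 fold change of 0.35 (SE 0.17, edgeR unadjusted p = 0.0760, adjusted p = 0.574). Neither pair of groups overlapped, and without the low WT-labelled replicate 1 the Chd9 log2 fold change was 0.195. The ratio of Chd7 to Chd9 per kilobase was 1.35, 1.03 and 1.47 in the KO-labelled libraries and 2.79, 1.75 and 1.76 in the WT-labelled ones. Its separation of the groups follows from that of the single genes and adds nothing to it. Merged exons came to 13.79 kilobases for Chd7 and 23.15 for Chd9, and the longest transcripts to 10216 and 12008 bases. The size of this ratio, also whether it lies above 1, therefore depends on the annotation. Chd8, of the same subfamily, was at -0.01 (SE 0.09) and Chd6 at -0.23 (SE 0.16), both with overlap. Chd6 was highest in WT-labelled replicate 1, at 118 CPM. It had 83.6 and 92.5 CPM in WT-labelled replicates 2 and 3 and 74.0 to 95.8 CPM under the KO label. Chd1l, a remodeller recruited by poly(ADP-ribose), was at 0.28 (SE 0.22), with WT-labelled replicate 1 lowest at 7.56 CPM. Among the Arid DNA-binding factors outside BAF, Arid4a, a SIN3 partner, had 51.7, 52.5 and 54.7 CPM under the KO label and 47.5, 48.5 and 49.7 CPM under the WT label (0.12, SE 0.06), and Arid3a stood at -0.17 (SE 0.09), also without overlap.

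**Figure D4:**
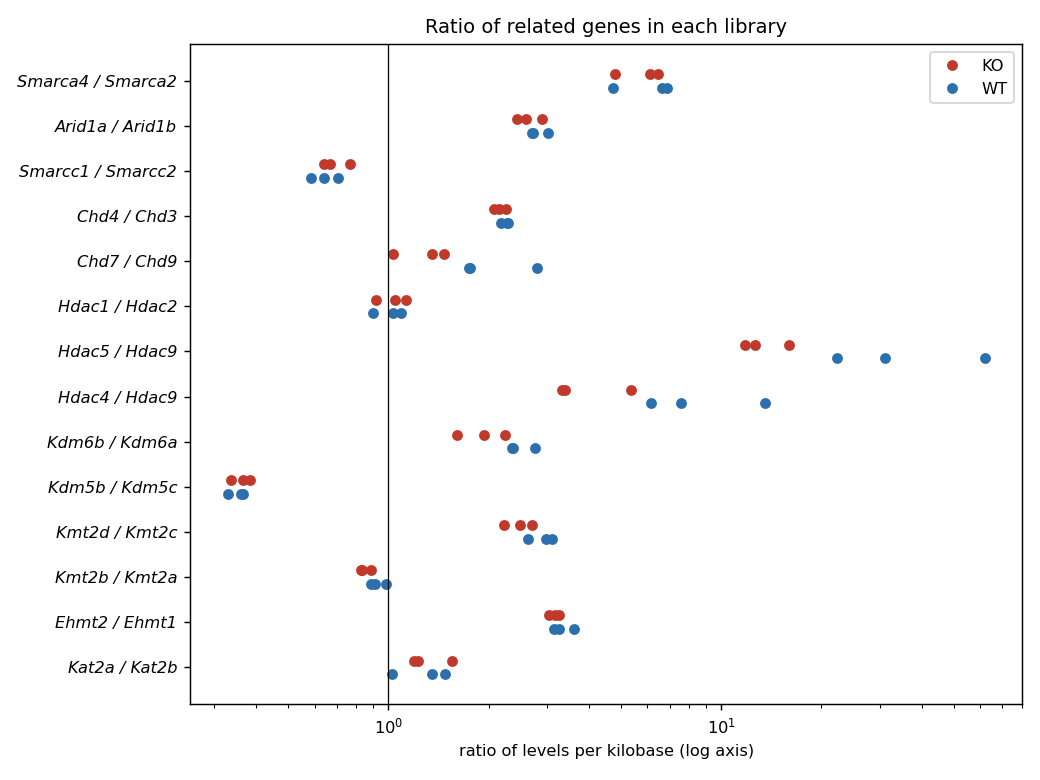
Ratio of the levels per kilobase of 14 pairs of related genes in each library, on a log axis, with KO-labelled libraries drawn above WT-labelled ones in each row. The groups did not overlap for 4 of the 14 pairs, Chd7 to Chd9, Hdac5 to Hdac9, Hdac4 to Hdac9 and Kdm6b to Kdm6a, while the ratios of Smarca4 to Smarca2, Hdac1 to Hdac2 and Chd4 to Chd3 overlapped. Except for Kdm6b to Kdm6a, these separations were fixed in advance, since each gene of the pair already separated the groups, in opposite directions. The pairs were listed by hand, and no share over other gene pairs was taken.

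Base composition moved with the fold change. Across the 83 genes the log2 fold change had a Spearman correlation of -0.51 with the GC content of the longest annotated transcript, and across the 10917 genes with an annotated length it was -0.25. Genes share their 6 libraries, so this is a description without a test. With all genes split by GC content into 4 bins of like size, the 22 members in the highest bin (54.4% and above) had log2 fold changes with a median of -0.14 and 18 below 0, where the median of all genes in that bin was -0.079. The 15 members in the lowest bin (44.8% and below) had a median of -0.0020 and 8 below 0, where the median of all genes in that bin was 0.059. The 17 genes without overlap and lower under the KO label had a median GC content of 54.3%, the 4 that were higher 45.05%, and the 62 with overlap 49.6%. By library, the deviation of the 83 genes from their mean correlated with GC content at -0.24, -0.26 and -0.49 in KO-labelled replicates 1, 2 and 3, and at 0.35, 0.21 and 0.31 in WT-labelled replicates 1, 2 and 3. With exon length, the log2 fold change of the 83 genes had a Spearman correlation of 0.05. Their deviation by library correlated with length at -0.10, -0.12 and 0.30 in KO-labelled replicates 1, 2 and 3, and at -0.04, -0.34 and 0.14 in WT-labelled replicates 1, 2 and 3. The 83 genes were long, with a median of 7.83 kilobases of exon, against 4.66 over all genes.

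A fit with each library's trend on GC content removed, added after the data were seen, gave a median of -0.044 over the 83 genes with 57 (68.7%) below 0, against 50.6% of all genes, and 2 genes (2.41%) at an unadjusted p under 0.05, against 6.4% of all genes. The log2 fold change of Hdac9 was 0.97 in that fit, of Chd9 0.32 and of Chd7 -0.29. Those of GC-rich genes shrank in size, to -0.20 for Hdac5, -0.16 for Kmt2b, -0.17 for Kmt2d, -0.18 for Kdm6b and -0.079 for Kmt5c. The trend fell with GC content in KO-labelled libraries and rose in WT-labelled ones, so its removal shrinks such values by construction. It would also remove any label difference that follows GC content. The part of GC content in these values was not tested.

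**Figure D5:**
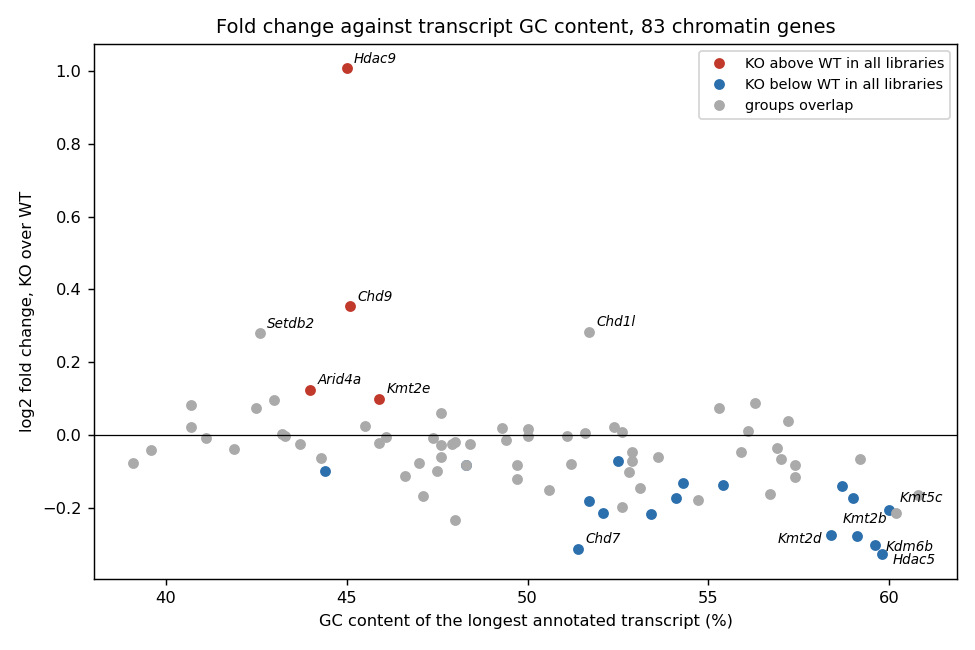
Log2 fold change, KO-labelled over WT-labelled, against the GC content of the longest annotated transcript for the 83 genes; red points are the 4 genes with the KO label higher in every library, blue points the 17 with it lower, grey points those with overlap. The blue points lie mostly on the GC-rich right, with Hdac5, Kdm6b, Kmt2b, Kmt2d and Kmt5c near the right edge, and the red points lie on the GC-poor left.

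Partners of these enzymes that the name rule does not catch were likewise not called and leaned below 0, but some lists varied more. Of 181 such genes in 13 lists of complexes and families, 172 were listed, and edgeR and DESeq2 each called 0 of them. At an unadjusted p under 0.05 edgeR gave 0 higher and 13 lower (7.56%, against 7.88% of all genes), 117 lay below 0, and the median log2 fold change was -0.059. Without WT-labelled replicate 1 that median was -0.035, with 112 below 0. Every list had its smallest adjusted p at 0.574 or above. Polycomb complex PRC1 had a median of -0.21, with 4 of 18 genes (22.2%) beyond 0.5 in size, against 1.2% of the 83 genes and 10.6% of all. Its gene Cbx2 stood at 87.1 CPM in WT-labelled replicate 1, against 28.6 and 26.8 in WT-labelled replicates 2 and 3. Demethylases of other names had a median of -0.22, with 7 of 7 below 0, and the DNA methylation list 0.0052, with 4 of 9 below 0. Of those demethylases, Phf8 stood at 285 CPM in WT-labelled replicate 1, against 174 and 179 in WT-labelled replicates 2 and 3. Jmjd6 stood at 91.8 CPM there, against 51.6 and 53.8, while Hr went the other way, at 81.2 CPM against 105 and 101. The genes of smallest unadjusted p on the lower side of their lists included Phc2 of Polycomb complex PRC1 (228 CPM ± 8.31 under the KO label and 270 CPM ± 13.3 under the WT label, SD, n = 3 each, log2 fold change -0.25) and Bicra of noncanonical BAF (39.2 CPM ± 0.462 under the KO label and 46.5 CPM ± 3.09 under the WT label, -0.25). The de novo DNA methyltransferase Dnmt3a stood at 104 CPM ± 12.2 under the KO label and 136 CPM ± 19.0 under the WT label (-0.39), and the histone methyltransferase Dot1l at 101 CPM ± 4.49 under the KO label and 134 CPM ± 26.3 under the WT label (-0.41). The acetyl-lysine reader Brd3 (-0.18), the remodeller Srcap (-0.37), the CoREST scaffold Rcor1 (-0.17) and the NuRD subunit Gatad2a (-0.21) followed. In those 8 genes, picked by smallest p, the groups did not overlap, which held for 38 of the 172 partners (22.1%) and 17.4% of all genes. Dot1l was highest in WT-labelled replicate 1, at 164 CPM, and single partner genes were not fitted without that library. On the higher side, the DNA demethylase Tet2 (0.23) did not overlap, while Mtf2 of PRC2 (0.22) and the methyltransferase Suv39h1 (0.23) did. Ezh2, the catalytic subunit of PRC2, was at -0.11 with overlap.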

How the data were processed

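Per the labels' protocols, RNA from mammary tumor cells was purified on RNeasy columns, made into NEBNext Ultra libraries and read on a NovaSeq instrument. The authors deposited raw read counts per gene symbol, 1 column for each of 6 libraries, with no normalization. CASAVA 1.8, HISAT2, featureCounts and the build GRCm38 (mm10) are named, per the submitters' processing notes. The highest count of any listed gene was at least 133, so low genes had been removed before deposit, by a rule not given in the sources used here. Strand and multi-mapping settings are not given either, so genes that share sequence or overlap are uncertain.

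Counts were fitted over the whole table with edgeR 4.0.16 (R 4.3.3; filterByExpr, TMM scaling, robust quasi-likelihood F test, group as the only term), with Benjamini-Hochberg adjustment over all 10995 genes and a threshold of 0.05. The script was checked on simulated data. DESeq2 1.42.0 and limma-voom (limma 3.58.1), other scalings and filters, the replicate block and leaving out each library were alternatives. CPM used TMM-scaled library sizes. Levels per kilobase divide CPM by the merged exon length in GENCODE M21, and GC content is that of the longest transcript. Merged exons can far exceed the longest transcript, so ranks and ratios of levels per kilobase between genes depend on the annotation. The divisor of a gene is the same in all 6 libraries. Depth was 19569173 to 24188875 counts per library.

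The members and all gene lists were chosen with earlier results of these data known. Named members were 35 genes chosen by role, the 6 of smallest unadjusted p and the 3 of largest fold change in each direction, and the 3 highest and 3 lowest in level per kilobase, 47 in all. Other members, among them those named for not overlapping and Kat7, were named after their values were seen. Partner genes named are those of smallest unadjusted p in a list, and Cbx2, Phf8, Jmjd6 and Hr, named after their values were seen.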

Additional observations from a re-analysis of the deposited data

How the results depend on the processing

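No chromatin gene and no partner gene was called in any of the 17 settings run. All 10995 genes passed the filter, so the setting without a filter repeated the main fit and could not differ from it. Over all genes the edgeR count of 0 became 103 with DESeq2, 0 to 2 with 1 library left out (2 without WT replicate 2) and 1 without KO replicate 2 and WT replicate 1, a setting chosen after seeing the data. At an unadjusted p under 0.05 edgeR gave 7.88% of all genes. Of the 83 genes, 21 did not overlap. Over all genes 17.4% did not. That count was 22 to 35 with 1 library left out (23.3% to 34.7% of all genes) and 33 without KO replicate 2 and WT replicate 1 (33.9% of all), where fewer libraries make separation easier by construction, and 11 with the GC trend removed (14.4% of all). The median log2 fold change stayed below 0 throughout (-0.042 to -0.078 with 1 library left out). The deviations of same-numbered KO and WT libraries correlated at -0.11, 0.35 and -0.25, and those of KO replicate 3 and WT replicate 1 at 0.35. With 3 libraries per group, each centred on its group mean, these values cannot tell whether the numbers pair the libraries. With the replicate block the median was -0.059, 5 genes (6.02%) had an unadjusted p under 0.05, against 7.84% of all genes, and 0 were called.

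Of 655 values of single members under an alternative, 614 kept their direction, 41 near 0 did not, and none was called. The 614 include the values without a filter, which could not change. Scaling by library size gave Smarca2 0.027, Arid2 0.00302, Chd8 0.0088, Hdac1 0.022 and Kdm5a 0.022. The stricter filter, with 9915 genes, gave Smarca2 0.0072, Hdac1 0.0053 and Kdm5a 0.0052. Smarca2 was 0.0134 with the replicate block and 0.0135 with limma-voom. With the GC trend removed Smarca4 was 0.013, Smarca2 0.015, Hdac1 0.0012, Setd1a 0.013 and Kat2a 0.00012. With 1 library left out the ranges were Smarca4 -0.13 to 0.037, Smarca2 -0.11 to 0.15, Smarcb1 -0.0029 to 0.056, Smarcc1 -0.090 to 0.030, Arid2 -0.068 to 0.028, Chd3 -0.042 to 0.064, Chd8 -0.078 to 0.070, Hdac1 -0.053 to 0.064, Hdac2 -0.083 to 0.037, Kdm5a -0.016 to 0.026, Kmt2c -0.16 to 0.041, Setd1a -0.14 to 0.013, Kat2a -0.22 to 0.013 and Setd4 -0.11 to 0.19. The cause was not tested. Depth limits the genes of fewest counts, such as Setdb2 with 91 to 190 per library and Hdac9 with 76 to 346.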
